A study of Mus musculus with 2 samples.

Results

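The genes described here carry cisplatin into kidney tubule cells, out of them again, or turn it into a more reactive form. They are Slc22a2, Slc22a6, Slc22a8 and Slc31a1 for uptake, Slc47a1, Abcc2 and Abcc4 for export and Ggt1 for activation. These 8 genes were taken by symbol from the 32285 genes of each count matrix, and all 8 were found. Their transcripts were counted as unique molecular identifiers (UMIs, 1 per captured transcript) in droplet barcodes sorted by marker genes and by depth.

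Cisplatin is a platinum drug whose dose is limited by injury to the kidney, above all to the proximal tubule, the segment that reabsorbs most of the filtrate. Organic cation and anion carriers on the blood side and copper carriers bring the drug or its conjugates into the cell, and carriers on the lumen side send cations and glutathione conjugates into the urine. Gamma-glutamyl transferase on the brush border trims glutathione conjugates, a first step towards reactive thiols.

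The samples were kidney cells from C57BL6/J males, 10 to 12 weeks old, 1 library after saline and 1 library 72 h after cisplatin at 20 mg/kg, with the cells of 10 kidneys pooled per condition (the study's text names 5 mice, which at 2 kidneys each would be 5 per condition, though it does not say so outright). Cells had been bound to magnetic beads against CD31 and then podoplanin to enrich lymphatic endothelial cells. With 1 library per treatment there is no replicate, no test was run, and every interval below is a 95% interval that covers counting error only. A difference between the libraries therefore cannot be told apart from a difference between the pools of mice or the preparations.

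Total UMIs came to 5879496 in saline and 19994105 in cisplatin. The libraries had 630 and 3441 barcodes of 500 or more UMIs and shared 0 of them. A barcode was placed in a gate when it held at least 3 of the 12 markers of a class and more than of any other class. The proximal tubule gate took 149 saline and 1901 cisplatin barcodes, with a median of 688 and 700 UMIs, and the endothelial gate took 424 and 193, with a median of 1090 and 1270. The lymphatic label went against the markers: Prox1, which sets lymphatic identity, had a UMI in 4 of 630 and 17 of 3441 barcodes, and 0 and 1 barcodes held at least 3 of the 7 lymphatic markers. Mitochondrial transcripts made up 3.41% and 23.5% of UMIs in the proximal tubule gate, so levels are given as CPM over nuclear-encoded genes (UMIs of a gene per 1000000 UMIs of nuclear-encoded genes). Barcodes of 1 to 100 UMIs, called near-empty below, held 3703779 saline and 2140605 cisplatin UMIs, which come from free RNA and cell fragments, where fewer cells of a type and less RNA per cell cannot be told apart.

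Slc22a6 and Slc22a8 lie side by side on chromosome 19, transcribed in the same direction, with 6203 bases and 0 annotated genes between them (GENCODE vM21, GRCm38: Slc22a8 chr19:8591254-8611835 and Slc22a6 chr19:8618039-8628299, both on the plus strand). The other genes, all protein-coding and given whole on the same build, are Slc22a2 at chr17:12584132-12628488, Slc31a1 at chr4:62360727-62391769, Abcc2 at chr19:43782192-43840740 and Ggt1 at chr10:75561604-75586200 on the plus strand, and Slc47a1 at chr11:61343401-61378345 and Abcc4 at chr14:118482692-118706219 on the minus strand. The RefSeq promoter table (GRCm38.p6) held 7 of the 8 genes. The 150 bases before the start site are shown for these neighbours, at chr19:8617846-8617995 for Slc22a6 and chr19:8593032-8593181 for Slc22a8 (plus strand), as the RefSeq table places the start, which for Slc22a8 lies inside the gene as GENCODE gives it. Capitals mark CG pairs, the sites at which most methylation of mammalian DNA is found. Whether the pairs shown are methylated was not measured here. The stretch of Slc22a6 held 0 CG pairs and that of Slc22a8 held 1.
Slc22a6: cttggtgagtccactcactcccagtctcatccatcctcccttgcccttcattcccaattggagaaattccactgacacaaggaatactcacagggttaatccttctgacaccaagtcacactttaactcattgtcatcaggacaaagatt
Slc22a8: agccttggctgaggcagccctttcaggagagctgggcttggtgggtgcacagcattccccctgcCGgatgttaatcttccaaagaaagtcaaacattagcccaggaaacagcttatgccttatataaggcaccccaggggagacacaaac

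The promoters shown for Slc31a1 and Abcc4 differ from these in base composition. They were chosen because these 2 genes exceeded, in the endothelial gate of both libraries, the UMIs expected from free RNA by proximal tubule markers. As plain levels, Slc31a1 was lower in that gate (7.58 CPM in saline, 22.8 in cisplatin) than in near-empty barcodes (74.7 and 57.2). Values against the expected UMIs are given further on, where the excess of Slc31a1 was not detectable without the deepest barcodes. CG pairs are again in capitals, 5 for Slc31a1 and 24 for Abcc4, in the 150 bases before the start at chr4:62360551-62360700 (Slc31a1, plus strand) and chr14:118706220-118706369 (Abcc4, minus strand, the first of 2 listed starts).
Slc31a1: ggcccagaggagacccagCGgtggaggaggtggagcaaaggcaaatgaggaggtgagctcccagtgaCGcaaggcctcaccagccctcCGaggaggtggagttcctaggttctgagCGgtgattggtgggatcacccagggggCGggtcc
Abcc4: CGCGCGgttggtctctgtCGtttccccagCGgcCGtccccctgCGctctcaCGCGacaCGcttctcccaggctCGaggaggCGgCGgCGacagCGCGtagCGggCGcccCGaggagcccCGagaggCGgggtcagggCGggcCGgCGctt
The 300-base promoter at the first start of Abcc4 held 41 CG pairs, 1.04 times the number its C and G content gives by chance, while that at its second start held 6, a ratio of 0.376. The promoter of Slc31a1 held 21, a ratio of 0.715. No source used here says which start these cells use. The median ratio over all promoters was 0.384. Slc22a2 lay near it at 0.385 with 8 pairs, while Slc22a6 (0.116), Slc22a8 (0.0455) and Abcc2 (0.0667) held 2, 1 and 1 pairs, and the 4 listed starts of Ggt1 lay between 0.105 and 0.420. These are descriptions of letters and say nothing of which factors bind.

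In the proximal tubule gate, Slc22a2 alone of the 8 genes passed the size rule, at a lower level after cisplatin. The rule asked for at least 20 UMIs over both libraries, levels at least 1.5-fold apart, and an interval of the ratio that leaves out 1. By it, 0 of 8 genes were higher, against 4.62% of the 9456 genes with enough UMIs, and 1 was lower, against 3.16%. The median ratio of cisplatin to saline was 0.973 over the 8 genes and 1.04 over all 9456.

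**Figure D1:**
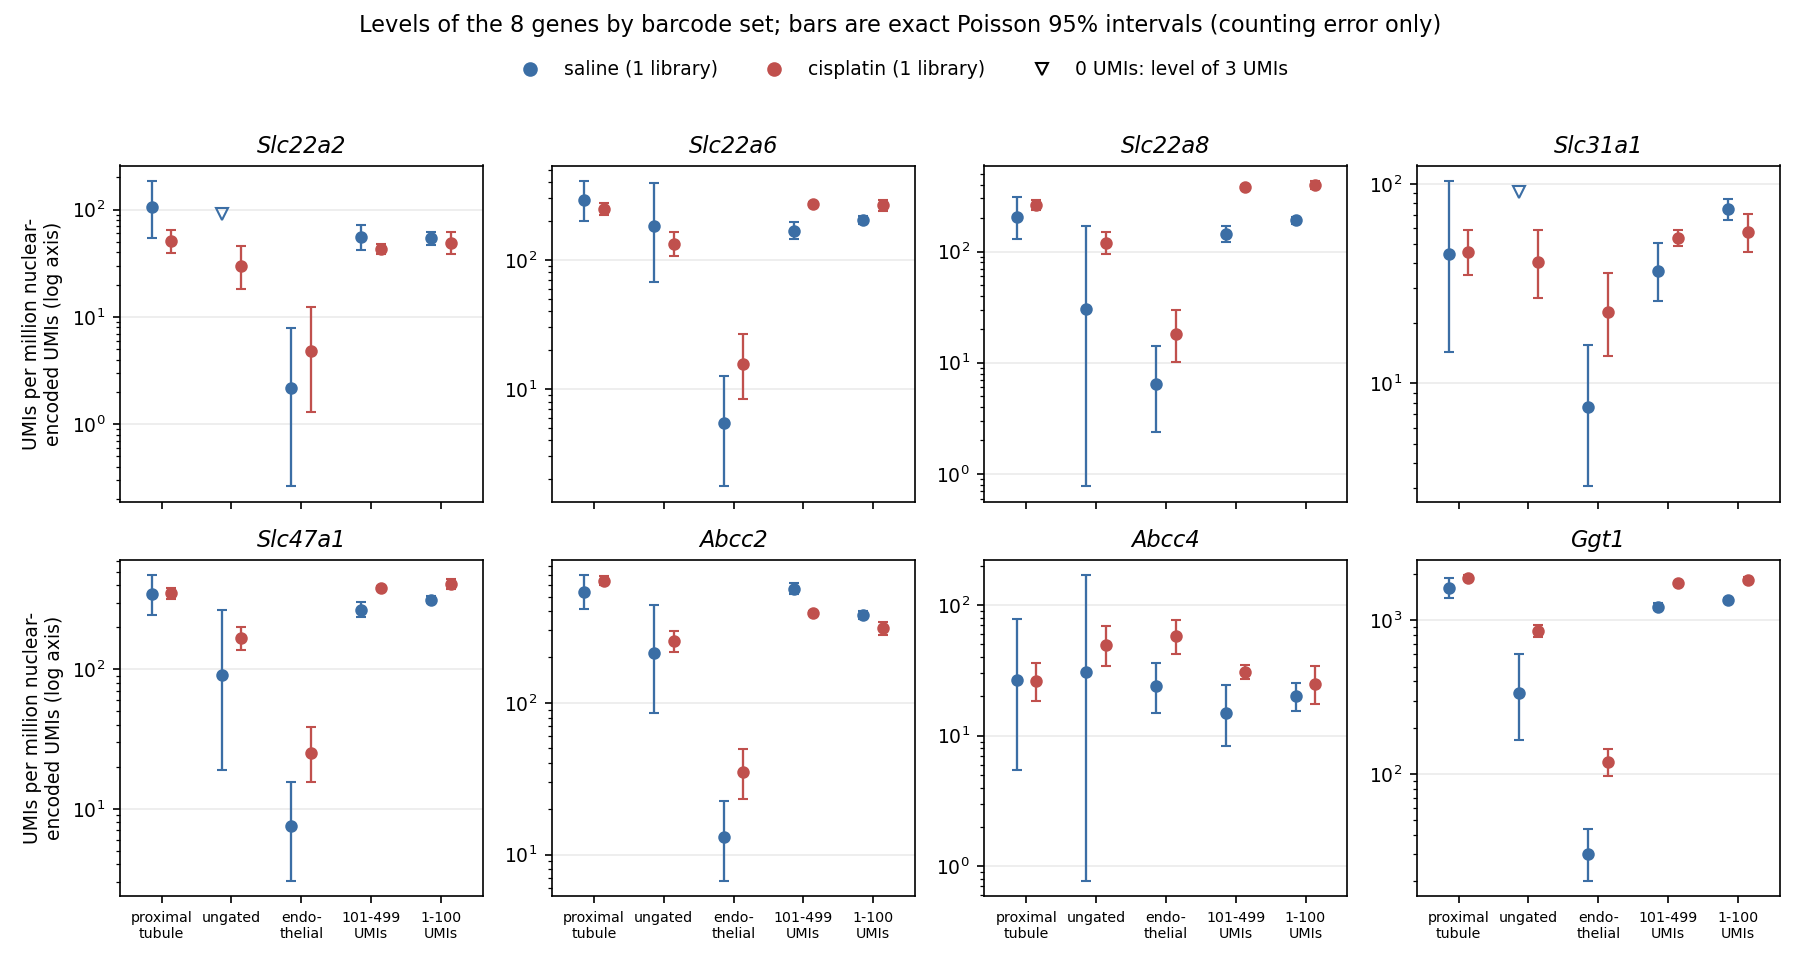
Level of each gene (CPM, log axis) in 5 barcode sets of the saline (blue) and the cisplatin (red) library, with exact Poisson 95% intervals; the sets named by UMIs hold all barcodes of that depth, and a triangle marks the level of 3 UMIs where none was seen. For 7 of the genes the lowest points are those of the endothelial gate, and Abcc4 is the exception.

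Of the uptake genes, Slc22a2 (the organic cation carrier OCT2, which takes up cisplatin from the blood side) had 12 UMIs in the saline and 70 in the cisplatin proximal tubule gate. That is 106 and 50.7 CPM, a ratio of 0.477 (0.256 to 0.966). The saline value rests on 12 UMIs in 12 barcodes. A UMI was seen in 8.05% of saline and 3.52% of cisplatin barcodes of the gate, and in 5.37% and 2.37% after every barcode was thinned to 500 UMIs, beside 0.472% and 1.55% in the endothelial gate before thinning. In near-empty barcodes its level was 53.9 CPM in saline against 49.1 in cisplatin, a ratio of 0.911 (0.686 to 1.20). The values thus differed beyond counting error in the gate and not in the near-empty barcodes, and whether these differences differ was not tested. The lower value in the gate did not pass the rule when scaled per 1000 UMIs of the 12 proximal tubule markers (0.603, 0.324 to 1.22), nor without the 13 cisplatin barcodes of 5000 or more UMIs (0.517, 0.278 to 1.05). It also missed the rule at a minimum of 300 UMIs (0.616), with at least 5 markers (0.597), without Kap as a marker (0.463) and with the gate by summed marker UMIs (0.519). Among barcodes of at least 1000 UMIs the ratio was 0.248, on 4 and 22 UMIs.

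Slc22a6 and Slc22a8 encode OAT1 and OAT3, which exchange organic anions across the blood-side membrane. Slc22a6 had 33 UMIs in saline and 343 in cisplatin in the gate, 293 and 248.5 CPM, a ratio of 0.849 (0.593 to 1.25). Slc22a8 had 23 and 359, which is 204 and 260.1 CPM, a ratio of 1.27 (0.837 to 2.04). Neither differed beyond counting error there. In near-empty barcodes Slc22a8 went from 681 UMIs (191 CPM) in saline to 593 (399 CPM) in cisplatin, a ratio of 2.09 (1.87 to 2.33), the one gene of the 8 past the rule. In the same barcodes Slc22a6 went from 203 to 266 CPM, a ratio of 1.31 (1.16 to 1.48).

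That near-empty count of 1 of 8 higher and 0 lower stands against a background in which 34.7% of 12362 genes were higher and 7.48% lower. The median gene lay at a ratio of 1.32 there, a log2 shift of 0.40, and the 8 members' median was 1.28, so Slc22a8 alone lay well above the shift. Relative to all UMIs, where mitochondrial transcripts made up 3.84% and 30.6% of the near-empty total, the median gene was at 0.955 and Slc22a8 at 1.51. The neighbour Slc22a6 lay at 0.945 on that scale. Slc22a8 passed the rule under each of the 5 alternatives run for these barcodes, with ratios from 1.51 to 2.64.

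Slc31a1 (the copper importer CTR1) had 5 UMIs in saline and 63 in cisplatin in the proximal tubule gate, 44.3 and 45.65 CPM, a ratio of 1.03 (0.419 to 3.28). In near-empty barcodes its ratio lay on the other side of 1, with 74.7 and 57.2 CPM and a ratio of 0.766 (0.593 to 0.981), short of the 1.5-fold limit. Its end overlaps the gene Cdc26 on the opposite strand, and no source used here says whether counting used strand.

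**Figure D2:**
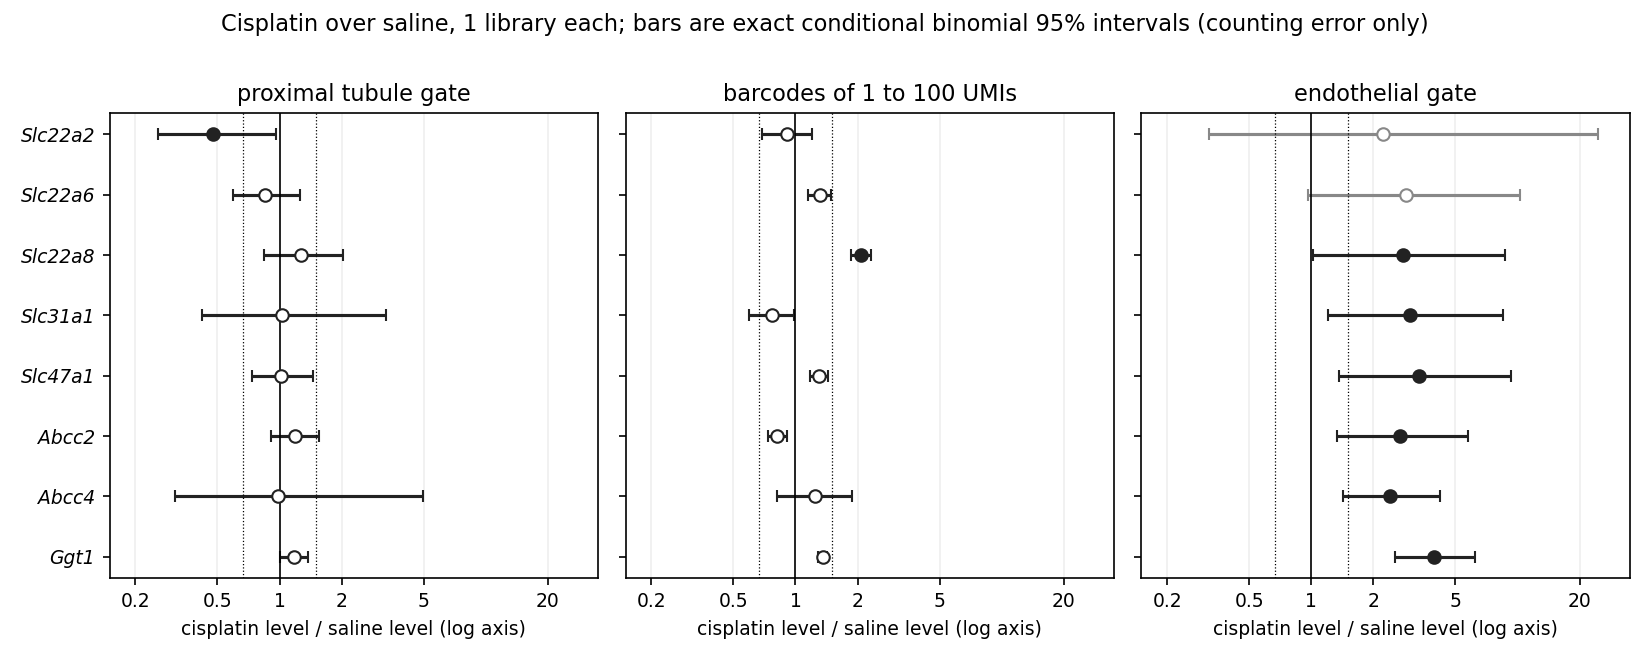
Ratio of the cisplatin to the saline level (log axis) of each gene in 3 barcode sets, with exact conditional binomial 95% intervals; filled points passed the size rule, open points did not, grey points had under 20 UMIs, and dotted lines mark 1.5-fold either way. Slc22a2 is filled in the proximal tubule gate, Slc22a8 in near-empty barcodes, and 6 genes in the endothelial gate.

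Of the export genes, Slc47a1 (MATE1, which moves organic cations into the urine in exchange for protons) was nearly equal in the gate. It had 39 UMIs in saline and 485 in cisplatin, 346 and 351 CPM, a ratio of 1.02 (0.733 to 1.45). In near-empty barcodes it was at 315 and 409.9 CPM, a ratio of 1.30 (1.18 to 1.44), close to the median gene.

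Abcc2 (MRP2, an ATP-driven pump for glutathione and glucuronide conjugates on the lumen side) had 61 and 883 UMIs in the gate. The levels were 541 and 639.8 CPM, a ratio of 1.18 (0.912 to 1.56). In near-empty barcodes the order was turned, with 379 CPM in saline against 309.6 in cisplatin, a ratio of 0.816 (0.733 to 0.908). Neither value passed the 1.5-fold limit.

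Abcc4 (MRP4, a pump for organic anions and cyclic nucleotides) was seen with only 3 UMIs in the saline gate and 36 in the cisplatin gate. The levels of 26.6 and 26.1 CPM gave a ratio of 0.981 with an interval from 0.310 to 4.98, too wide to show a difference of 2-fold at this depth. In near-empty barcodes it was at 19.9 and 24.9 CPM, a ratio of 1.25 (0.816 to 1.88).

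Ggt1, the activating enzyme, had the most UMIs of the 8 and so the narrowest intervals. In the proximal tubule gate it had 183 UMIs in saline and 2620 in cisplatin, 1623 and 1898 CPM, a ratio of 1.17 (1.01 to 1.37). A UMI was seen in 57.1% of saline and 64.1% of cisplatin barcodes of the gate, and in 48.3% and 48.9% after thinning to 500 UMIs. In near-empty barcodes it was at 1356 and 1839 CPM, a ratio of 1.36 (1.29 to 1.42), which is again close to the median gene. In the gate the direction depended on scale and depth: 1.48 per 1000 proximal tubule marker UMIs, 0.927 relative to all UMIs and 0.703 among barcodes of at least 1000 UMIs. The median gene of the gate moved with the scale as well. It lay at 1.04 on the main scale, 1.31 per 1000 marker UMIs and 0.823 relative to all UMIs, below Ggt1 on each.

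Barcodes of the proximal tubule gate mostly held UMIs of few of the 8 genes. At least 1 of the 8 was seen in 125 of 149 saline barcodes (83.9%) and 1550 of 1901 cisplatin barcodes (81.5%), at least 4 in 4.03% and 5.94%, and all 8 in none. Most of the transcripts were elsewhere: near-empty barcodes held 75.6% of the 8 genes' UMIs in saline, and barcodes of over 100 and under 500 UMIs held 71.2% of them in cisplatin. The gate itself held 2.94% and 12.3%. The same windows held most UMIs of all genes as well. In saline, near-empty barcodes held 3561548 nuclear-encoded UMIs, beside 1006976 at over 100 and under 500 UMIs and 1100558 at 500 or more. In cisplatin these numbers were 1485878, 8529218 and 3410305. The gate held 112779 and 1380134 of them. The 12 proximal tubule markers made up 1.66% of nuclear-encoded UMIs in the saline gate against 1.36% in near-empty barcodes, and 1.31% against 1.43% in cisplatin. The gate was thus somewhat richer in its own markers than near-empty barcodes in saline, and somewhat poorer in cisplatin. How much of the gate's UMIs was free RNA was not tested.

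The gate and the near-empty barcodes of 1 library were then compared, since most transcripts of these genes lay outside the gate. In saline, 1 of 8 genes was higher in the gate, against 3.60% of 11345 genes, and 0 were lower, against 1.48%. In cisplatin, 1 was higher, against 6.21% of 11416 genes, and 1 lower, against 15.5%. The gene higher in saline was Slc22a2, at 1.97 times its near-empty level (1.002 to 3.53), while in cisplatin it was at 1.03 (0.733 to 1.45). The difference between these values was not tested.

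In cisplatin the 2 genes were Abcc2 and Slc22a8, which parted in opposite directions. Abcc2 was at 2.07 times its near-empty level (1.84 to 2.32), and at 1.43 times (1.09 to 1.84) in saline. Slc22a8 was at 0.652 times its near-empty level (0.570 to 0.744), and at 1.07 times (0.671 to 1.61) in saline. Ggt1 lay between them at 1.03 (0.978 to 1.09).

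Other genes differed between these barcodes as well. Malat1, a long RNA kept in the nucleus, was at 2.81 times its near-empty level in the cisplatin gate and 1.23 times in the saline gate. The endocytic receptor gene Lrp2 was at 1.47 and 1.16 times, and the abundant tubule transcript Kap at 0.734 and 1.11. The part of nuclear RNA content in the difference between Abcc2 and Slc22a8 was not tested.

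Finer steps of depth were then read for both genes. Per 1000 proximal tubule marker UMIs in the cisplatin library, Abcc2 was at 27.2 UMIs (21.8 to 33.5) in barcodes of 1 to 50 UMIs, at 20.7 at 51 to 100, at 25.2 at over 100 and up to 200, and at 33.0 at over 200 and under 500. In the gate it stood at 46.5 below 1000 UMIs and at 53.0 from 1000 UMIs on. Slc22a8 stood at 27.5, 27.99, 28.4 and 27.8 over the 4 depths outside the gate, and at 20.6 and 18.7 in the gate. In saline, Abcc2 was at 24.3, 34.8, 46.3 and 47.3 and then 39.4 and 19.3, the last of which rests on 12 UMIs in 20 barcodes. Slc22a8 lay between 11.1 and 14.6 at every depth in saline. The gate was chosen by the same markers that scale these values, while below 500 UMIs all barcodes were used. A step at 500 UMIs therefore cannot be told apart from an effect of the gating.

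**Figure D3:**
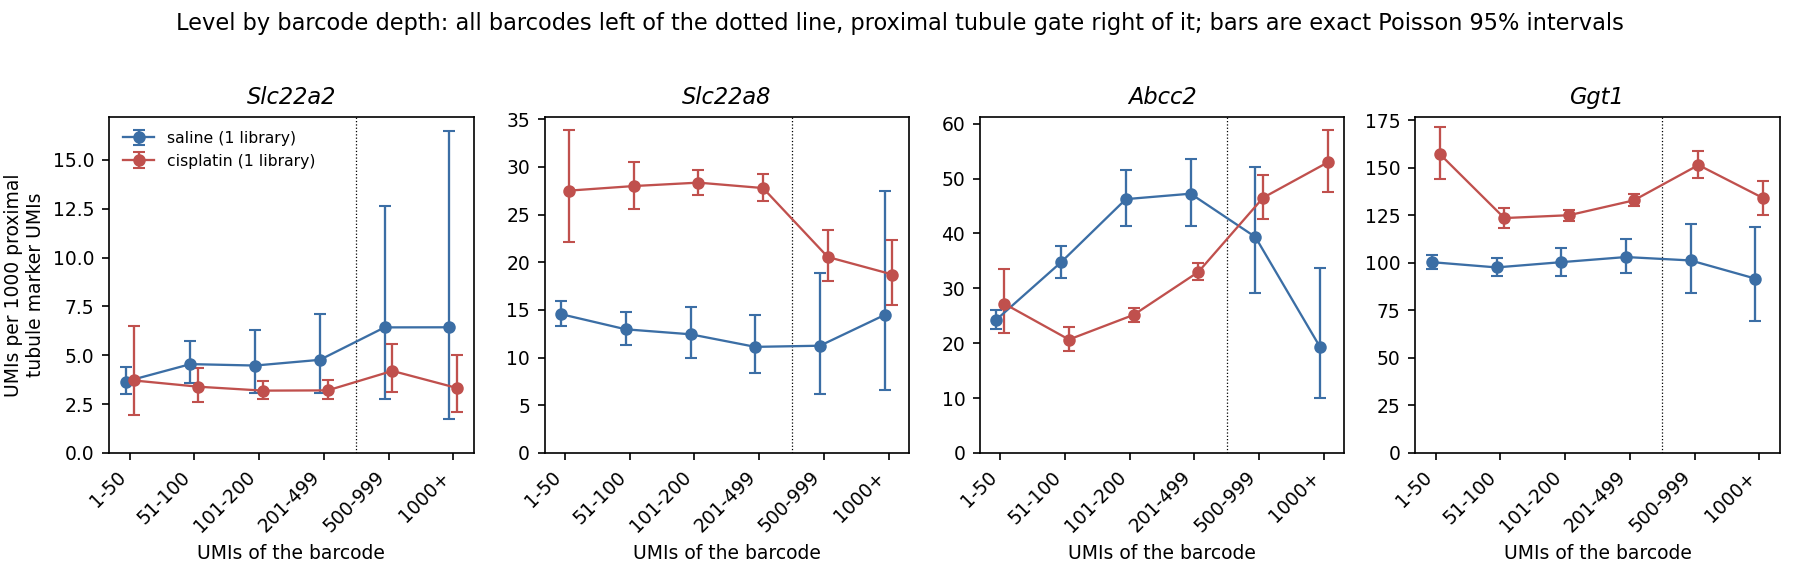
UMIs of 4 genes per 1000 UMIs of the 12 proximal tubule markers, by depth of the barcode, with exact Poisson 95% intervals; all barcodes are used left of the dotted line and the proximal tubule gate right of it, in saline (blue) and cisplatin (red). In cisplatin Abcc2 lies at 27.2 at 1-50 UMIs, 20.7 at 51-100 and 53.0 at 1000 or more, while Slc22a8 goes from 27.5 to 18.7.

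Within the cisplatin gate, barcodes were split by Havcr1 (the injury receptor KIM-1), by mitochondrial share and by depth. Havcr1 had 0 UMIs in the saline gate, which allows up to 26.6 CPM by a limit of 3 UMIs, and 69 UMIs (50 CPM) in the cisplatin gate. In the 61 barcodes with a Havcr1 UMI, Slc47a1 was at 212 CPM against 359 in the other 1840, a ratio of 0.592 (0.329 to 0.986) on 15 UMIs. Ggt1 was at 0.743 (0.603 to 0.907) of its level there, with 1430 against 1924 CPM, beside 0.741 for the phosphate carrier gene Slc34a1 and 0.994 for Malat1. Abcc2 and Slc22a6 were at 0.972 and 1.03 and did not differ beyond counting error. The barcodes with a Havcr1 UMI were also deeper, with 70638 nuclear-encoded UMIs in 61 barcodes against 1309496 in 1840. Deeper barcodes had lower levels of the same genes, with Slc47a1 at 0.714 and Ggt1 at 0.637 in barcodes of at least 1000 UMIs relative to the rest of the gate, and the part of depth in the Havcr1 values was not tested.

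The 747 cisplatin barcodes with over 20% mitochondrial UMIs had less Abcc2 than the other 1154, 474 against 711 CPM, a ratio of 0.667 (0.566 to 0.783). Malat1 was at 0.622 in the same split and Lrp2 at 0.913, and their part in the Abcc2 value was not tested. The other 7 genes lay between 0.672 (Abcc4) and 1.35 (Slc31a1). By depth, the 426 barcodes of at least 1000 UMIs were lower than the 1475 below 1000 UMIs in Ggt1 (0.637, 0.587 to 0.691), Slc22a8 (0.655, 0.523 to 0.818) and Slc22a2 (0.569, 0.327 to 0.961). Slc34a1 was at 0.628 and Malat1 at 0.962 in that split.

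In the endothelial gate 7 of the 8 genes had lower levels than in the proximal tubule gate in both libraries. How many of all genes were lower there was not computed. In saline 2 of the 7 had under 20 UMIs over both gates. Slc22a2 had 12 in the proximal tubule gate against 2, and Slc31a1 had 5 against 7. In saline the proximal tubule level was 53.5 times the endothelial level for Ggt1 (35.8 to 82.8) and 41.6 times for Abcc2 (22.2 to 85.0). In cisplatin these were 15.98 (13.1 to 19.7) and 18.4 (12.7 to 27.6). Abcc4 was the exception. Its proximal tubule level was 1.12 times the endothelial one in saline (0.214 to 3.72), where the interval includes 1. In cisplatin it was 0.453 times (0.286 to 0.712).

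Between the libraries, the 6 genes with at least 20 UMIs in the endothelial gate were all higher in cisplatin, against 15.6% of 8720 genes, and 0 were lower, against 8.69%. Ggt1 went from 28 to 99 UMIs, 30.3 to 119 CPM, a ratio of 3.92 (2.55 to 6.20), and the ratios of the other 5 ran from 2.42 (Abcc4) to 3.33 (Slc47a1). Proximal tubule markers in the same barcodes went from 316 to 806 UMIs, or from 0.0342% to 0.0967% of nuclear-encoded UMIs. Per 1000 of these marker UMIs the 6 ratios lay between 0.855 (Abcc4) and 1.39 (Ggt1), and 0 of the 6 passed the rule. The median gene of the endothelial gate lay at 0.383 on that scale.

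All barcodes outside the proximal tubule gate, 481 in saline and 1540 in cisplatin, were read in the same way. These barcodes differ in kind between the libraries: 424 of the saline ones were endothelial and 47 in no gate, while 193 of the cisplatin ones were endothelial and 1162 in no gate. All 8 genes were higher in cisplatin over this mixture, against 26.7% of 11075 genes, and 0 lower, against 12.0%, with the marker share at 0.0467% and 0.205%. In the barcodes of no gate alone, Ggt1 was higher at 2.54 (1.41 to 5.13), on 11 and 570 UMIs, and none of the other 7 passed the rule, with Slc22a6 at 0.728 (0.322 to 2.04) and Abcc2 at 1.19 (0.566 to 3.01). Per 1000 marker UMIs over the mixture, Ggt1 was higher at 2.03 (1.49 to 2.83) and Abcc4 lower at 0.414 (0.259 to 0.687). On that scale the median gene of the mixture lay at 0.261, so Abcc4 was lower by the rule and yet above the median gene.

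Free RNA of the same library was then used as a yardstick. If all tubule transcripts in the endothelial gate came from it, each gene would keep its near-empty ratio to the proximal tubule markers. By that measure 5 of the genes lay at the expected number in both libraries within counting error: Ggt1 had 28 UMIs against 31.4 expected in saline and 99 against 104 in cisplatin, and Slc47a1 had 7 against 7.29 and 21 against 23.1. Slc22a2, Slc22a6 and Slc22a8 had from 0.667 to 1.60 times the expected number. Abcc2 had 1.37 times (0.706 to 2.39) in saline and 1.66 times (1.11 to 2.39) in cisplatin. Intervals against this yardstick, here and below, cover counting error of the UMIs seen alone. The expected number was taken as fixed, though it rests on counts too, such as 37 near-empty UMIs of Abcc4 in cisplatin. Intervals that end close to 1 are thus narrower than the full counting error.

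Abcc4 stood far above the yardstick. It had 22 UMIs against 0.462 expected in saline, 47.6 times as many (29.9 to 72.1), and 48 against 1.40 in cisplatin, 34.2 times (25.2 to 45.3). Slc31a1 had 7 against 1.73 in saline, 4.05 times (1.63 to 8.34), and 19 against 3.23 in cisplatin, 5.89 times (3.55 to 9.20).

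**Figure D4:**
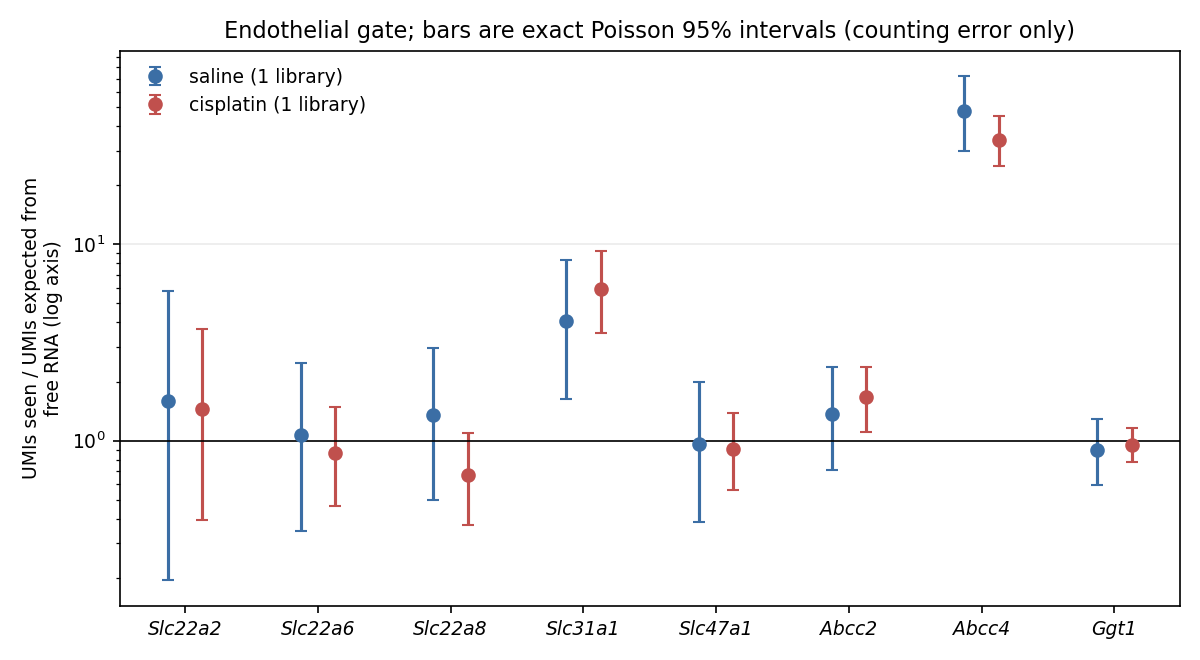
UMIs seen in the endothelial gate over the UMIs expected if the gene kept its near-empty ratio to the proximal tubule markers (log axis), for the saline (blue) and the cisplatin (red) library, with exact Poisson 95% intervals; the line marks 1. Abcc4 lies at 47.6 and 34.2 and Slc31a1 at 4.05 and 5.89, and apart from Abcc2 in cisplatin the other intervals include 1.

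How far the endothelial values rest on a few deep barcodes differed between the libraries. In saline the 22 Abcc4 UMIs were spread over 21 barcodes, with at most 2 in one. In cisplatin the 48 UMIs lay in 24 barcodes, 12 of them in a single barcode of 116215 UMIs that also held 9 of the 12 podocyte markers, and 30 of them in the 9 barcodes of 20000 or more UMIs. Without those 9 and the 1 such saline barcode, Abcc4 no longer passed the rule, with 21 and 18 UMIs and a ratio of 1.56 (0.785 to 3.08). Slc31a1 then had 7 and 8 UMIs and Slc22a8 6 and 13, under the 20 UMIs the rule asks for. Without barcodes of 5000 or more UMIs Abcc4 had 17 and 6, a ratio of 0.997 (0.322 to 2.65). It still stood at 42.3 times (24.6 to 67.7) and 9.02 times (3.31 to 19.6) the free RNA number. At that limit Slc31a1 had 3 and 4 UMIs, at 1.99 times (0.411 to 5.82) and 2.62 times (0.713 to 6.70), so its excess over free RNA was not detectable without the deep barcodes. The part of mixed droplets in these values was not tested.

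In the small cisplatin gate of loop, distal and collecting duct barcodes (35), Slc31a1 had 10 UMIs in 4 barcodes against 0.476 expected, 21.0 times (10.1 to 38.6), and 5 of them lay in a single barcode. Ggt1 had 35 against 15.3 there, 2.29 times (1.59 to 3.18), and Abcc4 3 against 0.207, 14.5 times (2.99 to 42.3), while the intervals of the other 5 genes include 1. In the 55 mesenchymal-gate barcodes of cisplatin Ggt1 had 43 UMIs against 24.8, 1.73 times (1.25 to 2.33), 20 of them in a single barcode, and the other 7 genes were within counting error. In the 79 leukocyte-gate barcodes of cisplatin each of the 8 genes was within counting error of the free RNA number, from 0.611 times for Slc22a8 to 3.26 times for Abcc4 (1 UMI). The saline library had 3 leukocyte barcodes, with 0 UMIs of the 8 genes. The barcodes of no gate include those with too few proximal tubule markers for that gate, and the same markers scale the expected number. The gating itself thus favours values above 1 in them, and no excess is read from these values. In the 1162 cisplatin barcodes of no gate, all members but Slc22a8 lay above the free RNA number beyond counting error. They ran from 1.37 times for Slc47a1 (1.13 to 1.65) to 6.70 times for Abcc4 (4.61 to 9.41), with Slc22a8 at 1.01. In saline only Slc22a6 did so, at 3.48 times (1.28 to 7.56) on 6 UMIs. In the 16 podocyte-gate barcodes of cisplatin only Slc31a1 did, at 11.4 times (1.38 to 41.0) on 2 UMIs.

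Other genes of the pathway, 75 in 9 lists, were read by the same rule. In the proximal tubule gate 60 had at least 20 UMIs, of which 8 were higher and 3 lower in cisplatin, against the 4.62% and 3.16% over all genes. Many of the intervals are wide, because the saline gate held few UMIs of these genes. Among 8 measured organic cation and anion carriers 0 were higher and 0 lower (median ratio 1.29): the dicarboxylate carrier Slc13a3 was at 1.38 (1.04 to 1.87), the urate carrier Slc22a12 at 0.813 (0.584 to 1.16) and Slc22a18 at 1.52 (0.9504 to 2.60). In the same list Slc22a4 (3.68, 0.627 to 148) and Slc22a5 (1.76, 0.786 to 4.88) lay above 1.5-fold and Slc22a7 (0.610, 0.340 to 1.19) below, each with an interval that includes 1. The 4 measured ABC exporters, with 0 higher and 0 lower (median 0.871), were led by Abcg2 at 0.895 (0.565 to 1.49) and Abcc5 at 0.872 (0.482 to 1.73). The 4 measured subunits of the volume-regulated anion channel, a further route for platinum drugs, gave 0 and 0 (median 1.31), with Lrrc8d at 1.28 (0.567 to 3.58) and Lrrc8a at 2.17 (0.571 to 18.4).

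Of 5 measured metal carriers and chaperones, 1 was lower: the copper pump Atp7a, at 0.278 (0.0984 to 0.963) on 5 and 17 UMIs. The copper chaperone Atox1 was at 1.11 (0.723 to 1.77) and Ccs at 0.794 (0.365 to 2.05). Of 16 measured genes of thiol conjugate processing, 2 were higher and 1 lower. The higher ones were Gstm1, a glutathione transferase, at 1.79 (1.07 to 3.23), and Gclc, the catalytic subunit of the enzyme that limits glutathione synthesis, at 2.46 (1.23 to 5.77). The lower one was the dipeptidase gene Dpep1, which acts after Ggt1 on the same conjugates, at 0.552 (0.325 to 0.999). Acy3, an aminoacylase, was at 1.03 (0.743 to 1.48).

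Among 6 measured proximal tubule regulators and scaffolds 1 was higher, Slc9a3r1, at 2.36 (1.22 to 5.22). The scaffold gene Pdzk1 was at 0.978 (0.685 to 1.44), and the transcription factor gene Hnf4a at 0.902 (0.620 to 1.36). Of 5 measured genes of the early segment S1 0 were called, with the bicarbonate carrier Slc4a4 at 0.825 (0.632 to 1.095). Of 4 measured genes of the late segment S3 1 was lower, the amino acid carrier Slc7a13, at 0.607 (0.439 to 0.859), while Slc22a30 was at 1.44 (1.02 to 2.10).

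Tubule injury genes differed most between the gates of the libraries: 5 of 8 measured were higher and 0 lower. The matrix protein gene Spp1 went from 12 UMIs (106 CPM) to 2594 (1880 CPM), a ratio of 17.7 (10.1 to 34.2), and Clu, a secreted chaperone, was at 4.62 (2.42 to 10.2). The cell cycle inhibitor gene Cdkn1a had 1 and 303 UMIs, a ratio of 24.8 (4.41 to 981). Lcn2 had 0 UMIs in saline and 230 in cisplatin, at least 6.26-fold higher against a limit of 3 UMIs in the saline gate, and Havcr1 was at least 1.88-fold higher on the same basis. With the counting error of both libraries, the lower ends of the 95% intervals are 5.05 for Lcn2 and 1.49 for Havcr1. Among the 8 transport and activation genes, the ratio farthest from 1 in the gate was that of Slc22a2 (0.477).

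In near-empty barcodes 43 of 68 measured genes of the lists were higher and 4 lower, against 34.7% and 7.48% of all genes. Tubule injury genes were higher in 9 of 9, with a median ratio of 17.4, against 1.32 over all genes. Of the genes of thiol conjugate processing 14 of 16 were higher and 0 lower, with a median of 2.52. Gclc was at 2.95 (2.58 to 3.36), Gstm1 at 2.86 (2.45 to 3.34) and Acy3 at 2.49 (2.25 to 2.75), above Ggt1 at 1.36. The 2 that did not pass were Kyat3, at 0.667 (0.450 to 0.966), and Nat8, at 0.801 (0.671 to 0.951). In the endothelial gate 21 of 38 were higher and 4 lower, against 15.6% and 8.69% of all genes there, beside the tubule marker values given above.

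The genes most like each of the 8 were sought by Pearson correlation of log2(level + 1) over 12 points, each a gate, the ungated barcodes or the near-empty barcodes of 1 library with at least 10 barcodes, among 10224 genes with at least 100 UMIs. The points share libraries and free RNA, so r is a description only. Ggt1 was most like Kcnj15 (0.99) and Slc34a1 (0.98). Abcc2 was most like Slc6a20b (0.99), Dao (0.98) and Mep1a (0.97), and Slc47a1 was most like Srcin1, Gk and Folr1 (each 0.99). Slc22a6 had Gcdh, Prodh2 and Slc22a12 (each 0.98), Slc22a8 had Gm19950, Glis2 and Slc9a8 (each 0.98), and Slc22a2 had Glyctk, Car4 and Larp4b (each 0.98). The nearest genes of Slc31a1 were Zfp691 (0.97), Sgms2 (0.96) and Rdh10 (0.96), and those of Abcc4 were L1cam, Lsg1 and Arl13b (each 0.94).

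Among the 8 themselves, Slc22a8 was closest to Slc47a1 (0.98) and Slc22a6 to Abcc2 (0.97). The neighbours Slc22a6 and Slc22a8 gave 0.74. Abcc4 gave at most 0.37 with any of the other 7 and Slc31a1 at most 0.60.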

How the data were processed

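Kidney cells enriched on beads against CD31 and podoplanin were profiled with a droplet kit that tags transcript 3' ends, in 1 saline and 1 cisplatin library. The authors deposited raw UMI counts per gene and barcode, unfiltered and not normalized. Cell Ranger 6.0.1 and mm10 are named in the submitters' processing notes, while a version 4 mark stands in the headers. No source used here says which barcodes the authors kept as cells or which annotation they used. There were 0 columns of unmapped samples.

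From these counts, UMIs were summed per library and barcode set with Python 3.11.15, numpy 2.4.6 and scipy 1.17.1. Barcodes of at least 500 UMIs were gated by 6 lists of 12 markers (at least 3 seen, and more than of any other class). No doublet caller was run and no mitochondrial limit was set. Levels are CPM, UMIs of a gene per 1000000 nuclear-encoded UMIs. Levels have exact Poisson intervals, shares exact (Clopper-Pearson) ones, and ratios exact conditional binomial ones, at 95%. UMIs of cells in 1 library are not independent replicates, so intervals cover counting error only. The ratio rule was tried on simulated Poisson counts of genes with at least 20 expected saline UMIs. That simulation covers neither genes with fewer, such as Slc22a2, Slc31a1 and Abcc4, nor variation between libraries or barcodes. Gene positions are from GENCODE vM21 and promoters from RefSeq (GRCm38.p6).

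The 8 genes and all lists were chosen with earlier results of these data known. All 8 genes are named, with up to 4 genes per pathway list (those with the most proximal tubule UMIs) and the 3 nearest genes of each member; Atp7a, Dpep1, Havcr1, Slc22a4, Slc22a5, Slc22a7, Kyat3, Nat8 and the genes set beside the splits (Malat1, Lrp2, Kap, Slc34a1) were named outside that rule after their values were seen. Some genes that the rule names are not reported here. Alternatives changed scaling, UMI minimum, quality filter, gate and window, 1 at a time.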

Additional observations from a re-analysis of the deposited data

How the results depend on the processing

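No paired analysis was possible because each group is 1 library. The 149 saline barcodes limit the depth of the proximal tubule comparison. In that gate, 1 gene rather than 0 was higher per 1000 marker UMIs (Slc22a8, 1.61) and at a minimum of 300 UMIs (Slc22a8, 1.58). Per 1000 marker UMIs the median gene of the gate lay at 1.31. The count of lower genes went from 1 to 0 per 1000 marker UMIs, at a minimum of 300 UMIs, with at least 5 markers, without Kap, with the gate by summed marker UMIs, and without barcodes of 5000 or more UMIs (added after seeing the data). The ratio of Slc22a2 lay between 0.248 and 0.616 over all alternatives of this gate. With the near-empty window moved to over 100 and under 500 UMIs, 3 genes rather than 1 were higher (Slc22a6 1.61, Slc22a8 2.64, Abcc4 2.08). The window of 1 to 100 UMIs takes a different part of each library. Saline had 19965 barcodes at 51 to 100 UMIs and 4492 at over 100 and up to 200, while cisplatin had 20603 and 45680. In near-empty barcodes, 3 genes rather than 0 were lower relative to all UMIs (Slc22a2 0.658, Slc31a1 0.553, Abcc2 0.589). In the endothelial gate the higher genes were 0 per 1000 marker UMIs and 3 without barcodes of 20000 or of 5000 and more UMIs, instead of 6. Values crossed 1 per 1000 marker UMIs for Slc22a8 (0.980), Abcc2 (0.948) and Abcc4 (0.855), and without barcodes of 5000 or more UMIs for Abcc4 (0.997). Outside the proximal tubule gate the same scaling gave 1 higher and 1 lower gene instead of 8 and 0, with Slc31a1 at 0.858 and Abcc4 at 0.414. The median gene there lay at 0.261 on this scale. These alternatives for the endothelial gate and outside the proximal tubule gate were also added after seeing the data. The cause of these changes was not tested. Barcodes over 20% mitochondrial could not be compared in the proximal tubule gate, since saline had 0.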
